A study of Mus musculus with 6 samples.

Results

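The genes described here are 10 genes known from macrophages that live long in tissues or lie along vessels: Cd163, Vsig4, Folr2, Lyve1, Mrc1, Cbr2, F13a1, Timd4, Stab1 and Pltp. They were chosen by name, on the strength of the differences between the 2 genotypes measured on these same 6 arrays, and each is represented by the probe set that the platform table pairs with its symbol alone. All 10 were measured, among 19938 genes in all, and 10 of 10 had 1 such probe set. RNA came from F4/80+ cells, F4/80 being a surface protein of mouse macrophages, that had been taken from tumours grown in 2 kinds of host. One group was St2-/- hosts (3 samples), which lack the IL-33 receptor ST2 in the host but not necessarily in the tumour, and the other was wild type hosts (3 samples). The sources used here do not give the tumour line, the strain, the age or the sex of the hosts, how the deletion was made, whether RNA was pooled, or whether each sample is an animal of its own. The p-values below thus reflect how far these samples scatter, and that scatter may be technical. Every sample was read on 1 Affymetrix Gene 1.0 ST array, and precision is limited by how few arrays there were.

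Macrophages that settle in tissues carry a set of uptake receptors that freshly arrived monocytes largely lack. Through these receptors they take up haemoglobin, complement-coated particles, folate, mannose-bearing glycoproteins, hyaluronan and dying cells. In many mouse tissues Lyve1, Folr2, Mrc1 and Cd163 mark macrophages beside blood vessels, and Timd4 marks macrophages that renew themselves without much input from blood. Tumours hold macrophages of this kind beside others that derive from monocytes. IL-33 is released by damaged or stressed cells and acts on ST2, which mast cells, innate lymphoid cells, regulatory T cells and some macrophages carry.

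Values are deposited RMA values on a log2 scale, where 1 unit is a doubling, and every difference is St2-/- minus wild type. Array medians over genes lay between 5.81 and 5.93. Pearson correlations over genes were 0.996 to 0.998 between arrays of a group and 0.986 to 0.988 between arrays of different groups, and no array stood apart from its group. The targeted gene was not analysed here, so the genotypes were not checked against it. A gene is said to have passed when its limma adjusted p was under 0.05, and over all genes 20.8% passed, 10% lower and 10.7% higher in St2-/-. Of these calls 51.7% were higher, and 74.0% with the arrays centred on their medians (46.8% after cyclic loess). The F4/80 gene itself, Adgre1, averaged 11.63 ± 0.04 in St2-/- and 11.32 ± 0.04 in wild type (SD, n = 3 each), a difference of 0.31 ± 0.06 (SE).

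Of the 10 genes, 9 were lower in St2-/- and passed, against 10% of all genes that did so, and 1, Timd4, did not pass. The 10 genes were proposed with this contrast already known, so their differences and this count are a description, no p is given for them, and nothing is read from the count. In 9 of the 10 every St2-/- array lay below every wild type array, as it did for 18.3% of all genes, and in Timd4 every St2-/- array lay above, as for 18.1%; groups were apart in either direction for 36.4%. The median difference of the 10 genes was -2.59, beside -0.02 over all genes. A level at least 2-fold lower was found for 8 of them and at least 4-fold lower for 6, where 0.878% and 0.12% of all genes passed with such a fall. In RNA of a bulk sort, fewer cells that carry a transcript and less of it in each cell cannot be told apart.

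Cd163 encodes the scavenger receptor that takes up haemoglobin bound to haptoglobin. Its values were 5.55, 5.11 and 5.51 in St2-/- replicates 1, 2 and 3, against 8.74, 8.50 and 8.50 in wild type. The St2-/- arrays were all low, replicate 2 lowest, and the nearest arrays of the groups lay 2.95 apart. The difference was -3.19 ± 0.12 (SE), a 9.13-fold lower level. Vsig4 encodes a receptor of the immunoglobulin superfamily that binds complement C3 fragments and also restrains T cells. Its values were 3.42, 3.85 and 3.57 in St2-/-, against 7.14, 7.45 and 7.08 in wild type. All 3 St2-/- arrays were near the floor of the table, whose lowest value was 2.02, and below 5.26, the mean value under which the dimmest 40% of genes lay. The difference was -3.61 ± 0.13 (SE), a 12.2-fold lower level. The deposited table holds no detection calls, so the background level under the Vsig4 value in St2-/- is not known, and RMA compresses differences of dim probe sets. Folr2 encodes folate receptor beta, which is anchored in the outer membrane and imports folate. Its values were 7.13, 7.10 and 6.99 in St2-/-, against 9.91, 9.96 and 9.88 in wild type. The arrays of each group kept close together, and the difference was -2.84 ± 0.07 (SE), a 7.18-fold lower level.

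Mrc1 encodes the mannose receptor, which takes up glycoproteins and microbes with exposed mannose. It was 9.66, 9.62 and 9.66 in St2-/-, against 11.28, 11.29 and 11.28 in wild type. With a spread of 0.04 and 0.01 between the highest and lowest array of each group, it had the least variation within both groups of the 10 genes, and its difference was -1.64 ± 0.06 (SE). Stab1 encodes stabilin-1, a large scavenger and sorting receptor that also clears the matrix protein SPARC. It was 10.24, 10.19 and 10.25 in St2-/-, against 11.12, 11.11 and 11.16 in wild type. Its groups were apart but by less, with a difference of -0.90 ± 0.06 (SE) and a 1.87-fold lower level. Lyve1 encodes a hyaluronan receptor of lymphatic endothelium and of perivascular macrophages. It was 5.86, 5.66 and 5.47 in St2-/-, against 8.06, 8.13 and 8.17 in wild type. The St2-/- arrays spread more than the wild type arrays, and the difference was -2.46 ± 0.10 (SE), a 5.49-fold lower level. Timd4 encodes a receptor for phosphatidylserine on dying cells. It was 4.67, 4.71 and 4.63 in St2-/-, against 4.50, 4.61 and 4.55 in wild type. All 6 values were low and close together, Timd4 lay among the dimmest 40% of genes, and the difference was 0.12 ± 0.06 (SE), which did not pass. It was 0.21 with arrays centred on their median, where it passed, and 0.19 after cyclic loess, where it did not. At such a level the arrays limit what can be said of Timd4 in either genotype.

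The remaining 3 genes do not encode receptors. Cbr2 encodes a carbonyl reductase of mice that uses NADPH. Its values were 7.38, 7.22 and 7.38 in St2-/-, against 11.01, 11.08 and 10.98 in wild type. The difference of -3.70 ± 0.07 (SE), a 13-fold lower level, was the lowest of all 19938 genes. F13a1 encodes the catalytic chain of clotting factor XIII, the transglutaminase that crosslinks fibrin. It was 8.25, 8.25 and 8.31 in St2-/-, against 10.92, 11.04 and 11.04 in wild type, a difference of -2.73 ± 0.06 (SE) and a 6.63-fold lower level. Both groups were narrow for F13a1, and the gap between them was 2.61. Pltp encodes the phospholipid transfer protein, which moves phospholipids between lipoproteins and is made by macrophages. It was 10.85, 10.79 and 10.81 in St2-/-, against 11.95, 11.85 and 11.85 in wild type, a difference of -1.07 ± 0.06 (SE).

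**Figure D1:**
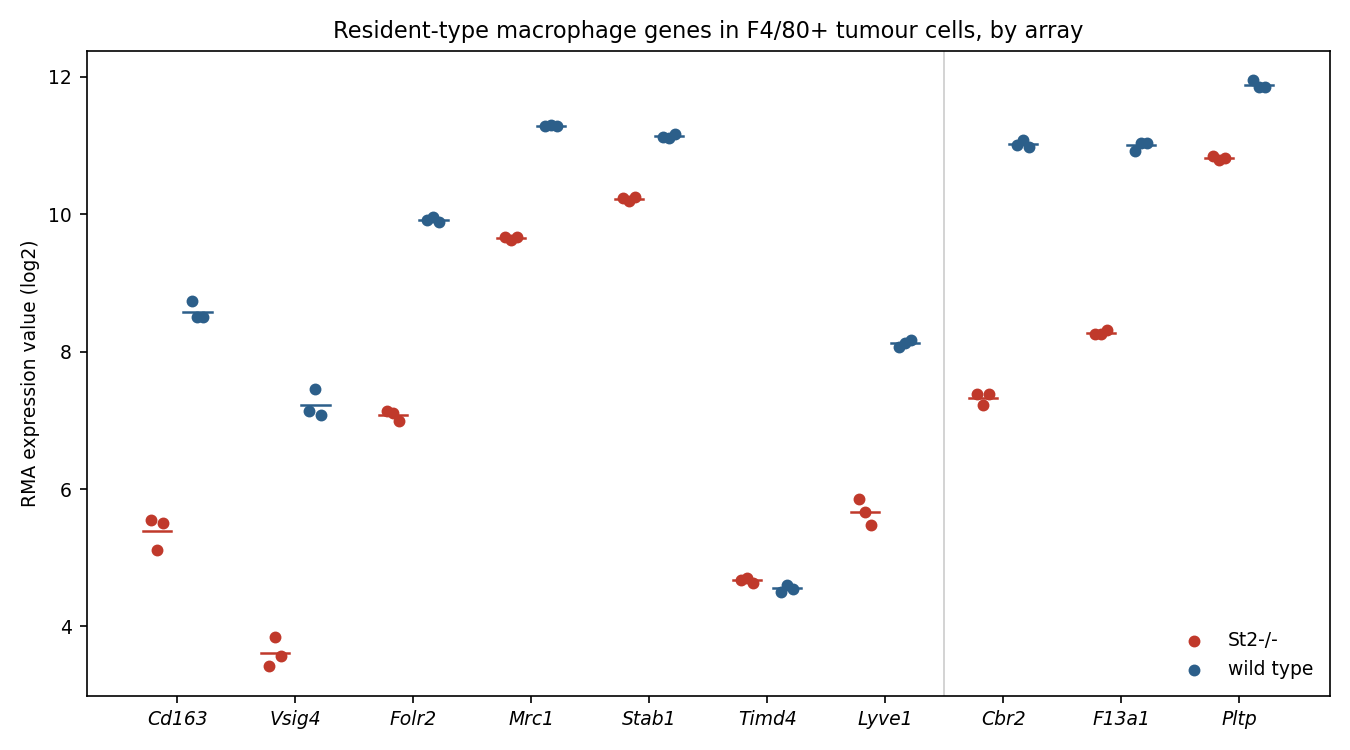
RMA values (log2, vertical axis) of the 10 genes in each array, St2-/- in red and wild type in blue, with short lines at the group means; uptake receptors stand left of the vertical line and other proteins right of it. Levels are to be compared within a gene only, and in 9 genes all 3 St2-/- arrays lie below all 3 wild type arrays, while Timd4 lies between 4.50 and 4.71 throughout.

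The 10 genes differed in how far apart the genotypes were. Ordered by difference, Cbr2 came 1st of 19938 genes counted from the most lower, Vsig4 3rd, Cd163 7th, Folr2 13th, F13a1 14th and Lyve1 17th. Mrc1 came 54th, Pltp 146th and Stab1 229th, so the genes fell into 6 with a difference beyond -2 and 3 between -0.90 and -1.64, with Timd4 apart. Cbr2 and Vsig4 lay closer than the SE of Vsig4, and Folr2 and F13a1 within 2 SE of either, while the other neighbours in this order lay more than 2 SE of either apart. Standard errors ran from 0.059 to 0.125 over the 10 genes, against a median of 0.0766 over all genes. Vsig4, Cd163 and Lyve1 had the widest spread between St2-/- arrays (SD 0.22, 0.24 and 0.20), and they were also the 3 of the 9 lower genes with the lowest St2-/- values. By array, the median of the 10 genes relative to their wild type means was -2.50, -2.60 and -2.67 in St2-/- replicates 1, 2 and 3, and -0.01, 0.03 and -0.02 in the wild type replicates. No single array of either group therefore set the difference. Leaving out each array in turn gave a median between -2.64 and -2.55.

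**Figure D2:**
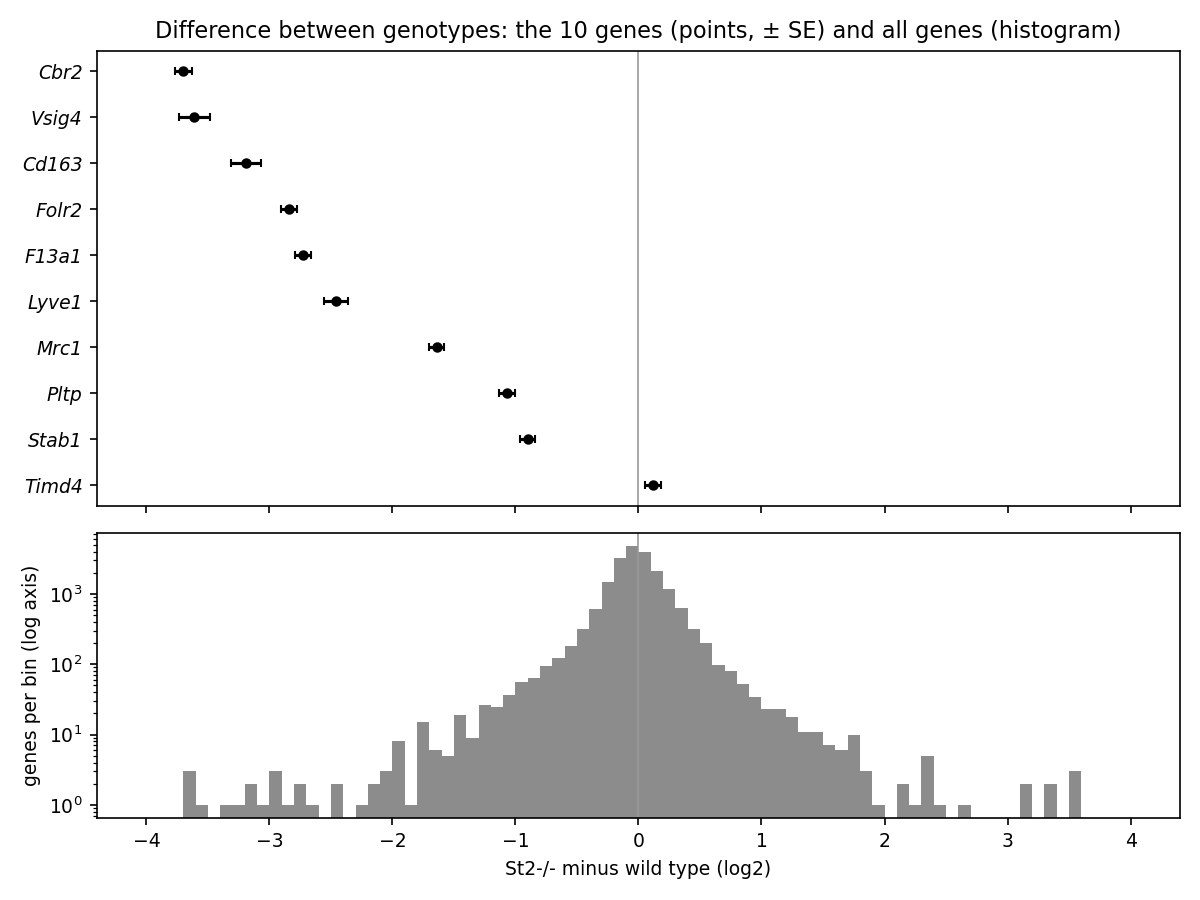
Differences, St2-/- minus wild type on the log2 scale (horizontal axis), of the 10 genes with SE bars in the upper panel, and of all 19938 genes as a histogram with a log vertical axis in the lower panel. The genes run from -3.70 for Cbr2 to 0.12 for Timd4, and 6 of them lie among the 20 most lower genes.

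The bases before the start sites are shown for the 4 genes with the lowest differences and for Timd4, which did not pass. The genes were chosen on the strength of their differences. That most of them were lower together follows at least in part from that choice, and shared regulation was not tested. Sequences are those of RefSeq on build GRCm38.p6, 5′ to 3′ on the strand of the gene, 250 bases up to the start, and those before Lyve1 were not analysed here. Capitals mark matches, on either strand, to any of 6 motifs: TGCTGAC (core bound by MAF factors), GAGGAA (core of PU.1), TGANTCA (AP-1), the STAT6 motif (TTC and GAA with 4 bases between), AGAACA (one arm of the glucocorticoid receptor site) and AGGTCA (one arm of nuclear receptor sites). Cbr2 lies at chr11:120732022-120732271 on the minus strand, Vsig4 at chrX:96293439-96293688 on the minus strand, Cd163 at chr6:124304401-124304650 on the plus strand, Folr2 at chr7:101845332-101845581 on the minus strand (the second of its 2 starts; the first window had 0 matches) and Timd4 at chr11:46810549-46810798 on the plus strand.
Cbr2: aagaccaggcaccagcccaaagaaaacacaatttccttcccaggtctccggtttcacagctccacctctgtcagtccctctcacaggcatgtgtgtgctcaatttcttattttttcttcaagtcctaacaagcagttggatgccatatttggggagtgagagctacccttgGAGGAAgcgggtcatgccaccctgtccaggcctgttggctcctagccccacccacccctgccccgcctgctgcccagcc
Vsig4: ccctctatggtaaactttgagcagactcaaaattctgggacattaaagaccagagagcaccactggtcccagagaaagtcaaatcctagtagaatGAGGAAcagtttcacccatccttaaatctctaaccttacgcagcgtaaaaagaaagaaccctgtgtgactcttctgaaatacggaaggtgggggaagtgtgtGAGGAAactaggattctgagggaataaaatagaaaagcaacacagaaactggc
Cd163: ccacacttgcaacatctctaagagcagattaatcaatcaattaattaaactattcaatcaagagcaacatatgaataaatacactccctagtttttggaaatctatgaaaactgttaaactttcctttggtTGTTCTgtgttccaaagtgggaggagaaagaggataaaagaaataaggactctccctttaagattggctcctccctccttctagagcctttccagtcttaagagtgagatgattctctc
Folr2: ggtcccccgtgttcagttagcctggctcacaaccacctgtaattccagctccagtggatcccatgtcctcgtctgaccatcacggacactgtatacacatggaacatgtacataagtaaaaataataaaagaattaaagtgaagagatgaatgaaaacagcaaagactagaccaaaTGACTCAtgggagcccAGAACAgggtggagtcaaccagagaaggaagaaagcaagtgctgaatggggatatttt
Timd4: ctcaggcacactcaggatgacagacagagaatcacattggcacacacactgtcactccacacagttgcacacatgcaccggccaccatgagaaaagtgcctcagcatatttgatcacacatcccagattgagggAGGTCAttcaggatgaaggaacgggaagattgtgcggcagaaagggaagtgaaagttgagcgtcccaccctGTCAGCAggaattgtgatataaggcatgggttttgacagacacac

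The PU.1 core was the motif found in most of the genes: 6 of 9 genes (7 of 11 windows of 300 bases, 250 before and 50 after a start) held GAGGAA, against 28.3% of all 32851 windows of that length. Counted from the start, Vsig4 held it at bases -155 and -53 and Cbr2 at base -79, and Mrc1 had 3 matches. The other motifs were rarer. The MAF core stood in Cbr2, within the 50 bases after its start, and in Timd4 (4.67% of all windows). AGAACA stood in Cd163 and Folr2 (19.0% of all windows), TGANTCA in Folr2 (7.81%) and AGGTCA in Timd4 (16.3%). The STAT6 motif stood in Cbr2, from base 25 after the start (6.95%). No motif was shared by all of the 4 genes with the lowest differences, and these matches describe letters in short windows only.

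Family relatives of the 10 genes passed about as often as genes in general. Of 27 measured relatives 3 were lower, 2 higher and 22 did not pass, with a median difference of -0.12. Thus 18.5% of the relatives passed, beside 20.8% of all genes. Of the 27, 14 lay among the dimmest genes, Cd163l1, Folr1 and Lbp among them, and at such a level the arrays limit what can be said. Without St2-/- replicate 3, 1 relative was lower. The scavenger receptor genes Cd163l1 and 5830411N06Rik, of the same domain family as Cd163, had differences of -0.24 ± 0.10 and -0.18 ± 0.09 (SE), neither passing, though Cd163l1 was called lower without wild type replicate 1 (-0.34, limma adjusted p = 0.0313). Folr1, which encodes folate receptor alpha and neighbours Folr2, averaged 4.86 ± 0.12 in St2-/- and 5.08 ± 0.15 in wild type (SD, n = 3 each), a difference of -0.21 ± 0.09 (SE) that did not pass. Stab2, the other stabilin, had -0.09 ± 0.08 (SE), and Mrc2, a collagen receptor of the mannose receptor family, had 0.00 ± 0.06 (SE). Dcxr, a reductase gene that also neighbours Cbr2, averaged 6.92 ± 0.05 in St2-/- and 7.21 ± 0.06 in wild type (SD, n = 3 each) and fell by 0.29 on the log2 scale (limma adjusted p = 0.0118). The call of Dcxr was lost with arrays centred on their median (adjusted p = 0.0616) and without St2-/- replicate 3 (0.0516). Cbr3, another carbonyl reductase gene, rose by 0.68 (limma adjusted p = 0.000977). Tgm2, the tissue transglutaminase, rose by 0.31 (adjusted p = 0.00507) beside the lower F13a1. Lbp, which encodes the lipopolysaccharide-binding protein of the same lipid-transfer family as Pltp, fell by 0.84 on the log2 scale (adjusted p = 0.0065), with St2-/- arrays that varied more (SD 0.41, against 0.12 in wild type).

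**Figure D3:**
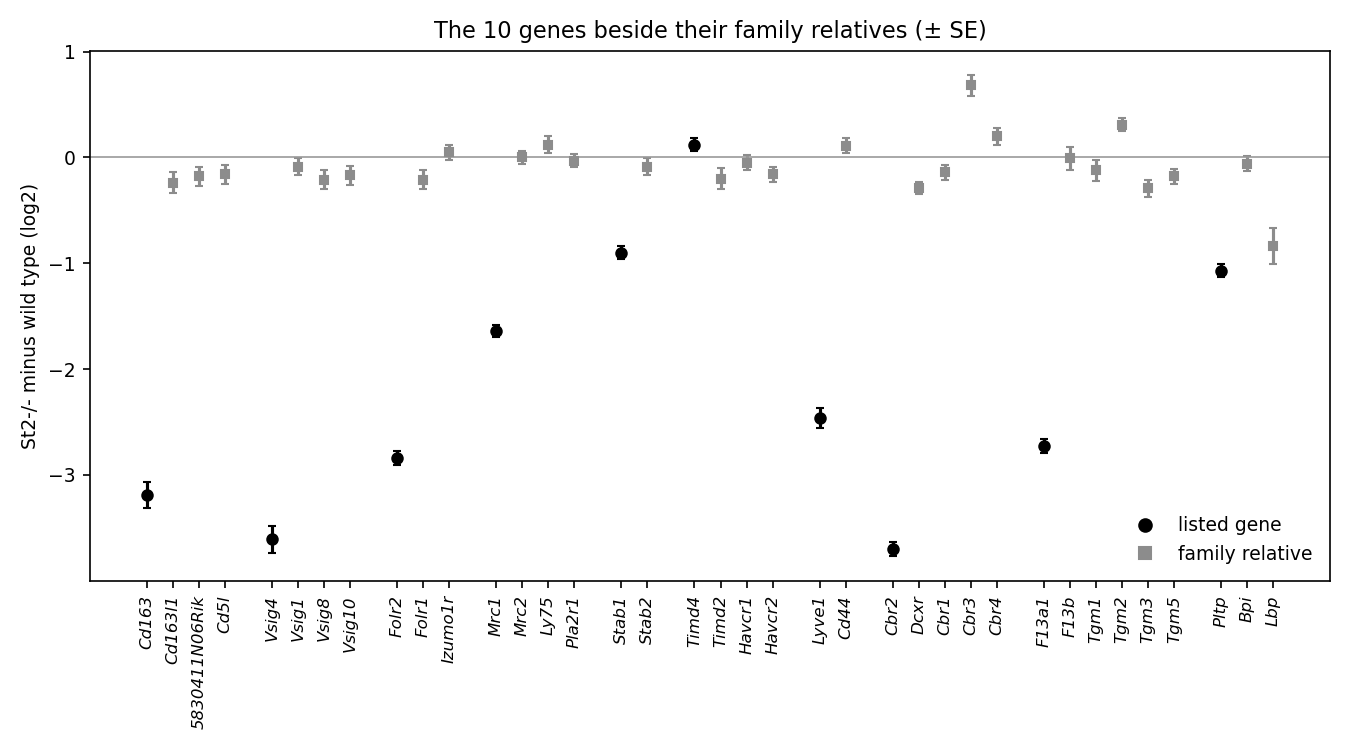
Difference, St2-/- minus wild type (log2, vertical axis), with SE bars, of each of the 10 genes (black circles) and of the measured members of its family (grey squares). Relatives lie between -0.84 (Lbp) and 0.68 (Cbr3), while Cbr2, Vsig4, Cd163, Folr2, F13a1 and Lyve1 lie below -2. The 10 genes were chosen on the strength of their differences, so this contrast follows at least in part from that choice.

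A list of 33 other measured genes known from resident or perivascular macrophages moved less evenly. Of these, 16 fell, 2 rose and 15 did not pass, with a median difference of -0.24. Igf1, a growth factor made by tissue macrophages, averaged 6.67 ± 0.09 in St2-/- and 8.39 ± 0.09 in wild type (SD, n = 3 each), a difference of -1.72 (limma adjusted p = 4.07e-07). Fcna, the ficolin of macrophages, fell by 1.27 on the log2 scale (adjusted p = 2.08e-05), Wfdc17 by 1.09 (5.33e-06) and the chemokine gene Ccl8 by 0.82 (2.08e-05). Named after their values were seen, the lectin gene Mgl2 (-1.01) and the sialic acid receptor gene Siglec1 (-0.51) also fell. The complement genes C1qa, C1qb and C1qc, which most tissue macrophages express strongly and which were also named after their values were seen, had differences of -0.04 ± 0.06, 0.06 ± 0.06 and 0.10 ± 0.06 (SE) and did not pass. C1qa turned to 0.05 with arrays centred on their median and C1qb to -0.02 after cyclic loess. Apoe, a lipoprotein gene of macrophages likewise named after its values were seen, had -0.14 ± 0.06 (SE) and did not pass, but was called lower after cyclic loess (-0.22, limma adjusted p = 0.0251) and with an intensity trend in the variance prior (0.00239). Il10, also named after its values were seen and one of the 2 genes that rose (0.64 ± 0.16, SE), lost its call without St2-/- replicate 1 (adjusted p = 0.0502) or replicate 3 (0.0631), and the number of genes that rose fell to 0 without either of these arrays and to 1 without any of the others.

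Among 26 transcription factors and signals known to shape such macrophages, 9 fell, 6 rose and 11 did not pass (median difference -0.14). Klf4 and Klf2, zinc finger factors that restrain inflammatory genes, fell by 0.92 and 0.78 on the log2 scale (limma adjusted p = 1.14e-05 and 2.08e-05). Nr4a1, a nuclear receptor needed by patrolling monocytes, fell by 0.76 (2.45e-05). Spic, the factor of iron-recycling macrophages, averaged 5.08 ± 0.08 in St2-/- and 4.13 ± 0.15 in wild type (SD, n = 3 each) and rose by 0.95 (adjusted p = 4.89e-05), at a low level. Named after their values were seen, Maf (-0.62), a factor of resident macrophage identity, the IL-4 receptor gene Il4ra (-0.52) and Il34 (-0.73), a ligand of the CSF1 receptor, fell, and Pparg (0.73) rose. Stat6, which relays signals of the IL-4 receptor and was also named after its values were seen, had 0.11 ± 0.07 (SE) and did not pass. Glucocorticoids raise Cd163 and Mrc1 in macrophages. Of 10 genes that glucocorticoids induce in many cells 5 fell, 1 rose and 4 did not pass, these with differences from -0.09 to 0.11. Tsc22d3 fell by 0.84 on the log2 scale (limma adjusted p = 1.09e-05), Klf9 by 1.03 (0.000104) and Fkbp5 by 0.53 (0.000954), while Zbtb16 rose by 0.41 (0.00467). The number that fell was 3 without St2-/- replicate 2 and 3 with arrays centred on their median. The gene of the glucocorticoid receptor, Nr3c1, named after its values were seen, had 0.04 ± 0.06 (SE), and -0.04 after cyclic loess. The part of glucocorticoids in the differences of the 10 genes was not tested.

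**Figure D4:**
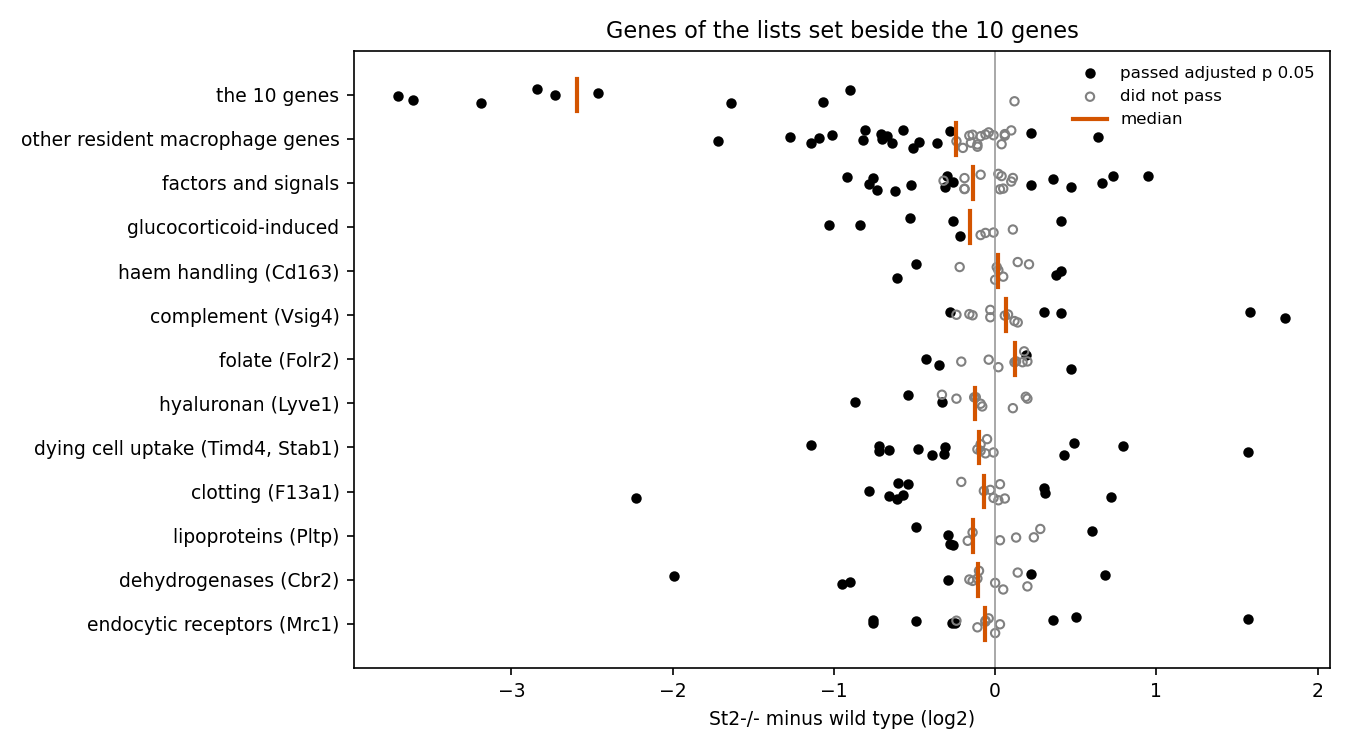
Differences, St2-/- minus wild type (log2, horizontal axis), of the 10 genes and of the measured genes of each list set beside them, with the 10 genes left out of the lists and cell type markers not drawn. Filled points passed an adjusted p of 0.05, open points did not, orange bars are medians, and the vertical position within a row is arbitrary. The median is -2.59 for the 10 genes and lies between -0.24 and 0.13 for the 12 lists drawn. The 10 genes were chosen on the strength of their differences, so this contrast of medians follows at least in part from that choice.

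Genes that work beside each of the 10 were also read. The 10 were chosen on the strength of their differences. Smaller differences in genes not chosen that way follow at least in part from that choice, and nothing is read from the contrast. Around Cd163, of 11 genes of haemoglobin and haem handling 2 fell, 2 rose and 7 did not pass. The endocytic receptor gene Lrp1 fell by 0.49 on the log2 scale (limma adjusted p = 0.00033) and haptoglobin, Hp, by 0.61 (0.000481), while the ferritin light chain gene Ftl1 rose by 0.38 (0.00206) and the biliverdin reductase gene Blvrb by 0.41 (0.00514). Hmox1, the haem oxygenase that degrades haem taken up through Cd163 and named after its values were seen, had 0.05 ± 0.06 (SE), and -0.04 after cyclic loess. Around Vsig4, of 14 complement genes 4 rose and 1 fell. The integrin gene Itgax, part of a receptor for the same C3 fragment, averaged 11.05 ± 0.05 in St2-/- and 9.25 ± 0.13 in wild type (SD, n = 3 each) and rose by 1.80 (limma adjusted p = 4.07e-07). The convertase gene Cfb rose by 1.58 (3.19e-07) and the properdin gene Cfp by 0.41 (0.00109). The 1 gene that fell, C4b (-0.28), was no longer called when St2-/- replicate 2 or 3, or wild type replicate 1 or 3, was left out (adjusted p from 0.0672 to 0.108). Around Folr2, of 12 genes of folate uptake and use 2 fell and 2 rose. The proton-coupled folate transporter gene Slc46a1 fell by 0.43 on the log2 scale (adjusted p = 0.00365) and the mitochondrial folate enzyme gene Mthfd2 rose by 0.47 (0.000949). The reduced folate carrier gene Slc19a1 (-0.35) was no longer called when St2-/- replicate 2 or 3, or wild type replicate 1 or 3, was left out, and its difference was -0.20 (adjusted p = 0.105) when all probe sets of the gene were averaged. Shmt2 (0.19) was no longer called when any 1 array was left out.

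Around Lyve1, of 12 hyaluronan genes 3 fell and 9 did not pass. Hapln1, which links hyaluronan to proteoglycans, had -0.87 (limma adjusted p = 0.000187) and the hyaluronidase gene Cemip2 -0.54 (0.00084). The third, the synthase gene Has1 (-0.33, adjusted p = 0.0488), had overlapping groups and lost its call under 9 alternatives, among them centring (0.0975), cyclic loess (0.0854) and leaving out St2-/- replicate 2 or 3 or wild type replicate 1 or 3 (0.115 to 0.151). The count was 5 without St2-/- replicate 1. Around Timd4 and Stab1, of 18 genes of dying cell uptake 8 fell, 4 rose and 6 did not pass. The receptor kinase gene Mertk fell by 0.72 on the log2 scale (adjusted p = 2.99e-05) and its bridging ligand gene Gas6 by 1.14 (3.78e-05), while Cd36 rose by 1.57 (4.07e-07) and Cd300lf by 0.79 (1.5e-05). Named after their values were seen, the bridging protein gene Mfge8 fell (-0.72) and the receptor kinase gene Axl rose (0.43). Around F13a1, of 17 clotting and fibrin genes 7 fell, 3 rose and 7 did not pass. Serpinb2, an inhibitor of plasminogen activators, averaged 4.20 ± 0.14 in St2-/- and 6.42 ± 0.15 in wild type (SD, n = 3 each), a difference of -2.23 (limma adjusted p = 4.15e-07). The factor X gene F10 fell by 0.66 on the log2 scale (0.000166) and the urokinase receptor gene Plaur by 0.57 (0.000251), while the protein C receptor gene Procr rose by 0.72 (0.000306).

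Around Pltp, of 11 lipoprotein genes 4 fell and 1 rose, and the count that fell was 2 without wild type replicate 1 or without St2-/- replicate 2 or 3. The cholesterol exporter gene Abcg1 rose by 0.60 (limma adjusted p = 9.72e-05) and Abca1 fell by 0.29 on the log2 scale (0.00867). Around Cbr2, of 14 dehydrogenase and reductase genes 4 fell, 2 rose and 8 did not pass. Dhrs9, a retinol dehydrogenase gene, averaged 5.67 ± 0.06 in St2-/- and 7.66 ± 0.27 in wild type (SD, n = 3 each), a difference of -1.99 (adjusted p = 3.09e-06), and Akr1b8 fell by 0.95 on the log2 scale (4.66e-06). The count that rose was 1 without any 1 array. Around Mrc1, of 15 other endocytic receptor genes 5 fell, 3 rose and 7 did not pass. Cd36, which is in this list too, had its smallest p and rose by 1.57 (limma adjusted p = 4.07e-07). The scavenger receptor gene Msr1 and the lectin gene Clec4d each fell by 0.76 (4.04e-05 and 6.99e-05). The number of these receptors that fell was 3 without wild type replicate 3 or without St2-/- replicate 1.

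Markers of macrophages as such did not move one way with the 10 genes. Of 12 macrophage markers 3 fell, 3 rose and 6 did not pass, and the mean value of the list lay between 11.16 and 11.21 in St2-/- arrays and between 11.20 and 11.24 in wild type arrays. Csf1r, the receptor that macrophages need to survive, had a difference of 0.05 ± 0.06 and Cd68 one of -0.04 ± 0.06 (SE), and each changed sign under a scaling alternative (-0.04 after cyclic loess, and 0.05 with arrays centred on their median). Aif1 rose by 0.59 (limma adjusted p = 0.000254) and Fcgr1 by 0.36 (0.00272), and Mertk and Lyz2 fell by 0.72 and 0.71 on the log2 scale (2.99e-05 and 7.86e-05).

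Several of the 10 genes are also known from other cells, so markers of those cells were read beside them. Lyve1, Stab1 and Mrc1 are expressed by endothelium of lymph vessels and sinusoids. Of 12 blood endothelial markers 9 were lower, 2 higher and 1 did not pass, with list means of 5.59 to 5.63 in St2-/- and 6.01 to 6.09 in wild type. Cdh5 differed by -1.46 and Vwf by -1.13, while Kdr differed by 1.52 and Pecam1, named after its values were seen, by 0.89. Of 7 lymphatic endothelial markers 2 were lower, Pdpn (-0.86) and Nrp2 (-0.59), and Prox1, the defining factor of these vessels and named after its values were seen, was at 4.08 ± 0.13 in St2-/- and 4.15 ± 0.15 in wild type (SD, n = 3 each), among the dimmest genes. The lymphatic list means were 5.65 to 5.71 in St2-/- and 5.88 to 5.96 in wild type. F13a1 is also a platelet gene. Of 6 measured platelet markers 4 were lower: Ppbp (-1.44), Pf4 (-1.03), Gp9 (-0.57) and Treml1 (-0.27). The call of Treml1 was lost with arrays centred on their median (limma adjusted p = 0.0619). The remaining 2 markers, with differences of -0.23 and -0.11, did not pass. Platelet list means were 5.60 to 5.66 in St2-/- and 6.20 to 6.28 in wild type. Their part in the differences of the 10 genes was not tested.

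Cbr2 is abundant in mouse club cells of the airway, whose secretoglobin gene Scgb1a1 averaged 3.06 ± 0.02 in St2-/- and 3.15 ± 0.15 in wild type (SD, n = 3 each), among the dimmest genes. Epithelial and club cell markers had 2 of 9 lower, and that count was 0 to 1 without any 1 array other than wild type replicate 2. Fibroblast markers had 7 of 12 lower and 1 higher, with Dcn at -3.33 and Lum at -3.56. Lum averaged 3.89 in St2-/-, near the floor though not as low as Vsig4 (3.61), so the size of its difference is uncertain for the same reason. Fibroblast list means were 6.13 to 6.22 in St2-/- and 7.17 to 7.19 in wild type. The median difference of the fibroblast list was -0.47, and 4 of its genes did not pass. Monocyte markers had 5 of 9 lower and 2 higher. Fn1 (-1.72) and Chil3 (-1.53) were lower and Plac8 (3.18) was higher, with list means of 6.84 to 6.87 in St2-/- and 6.98 to 7.07 in wild type. Neutrophil markers had 4 of 9 lower and 1 higher (list means 4.89 to 4.93 in St2-/- and 5.45 in every wild type array), with S100a8 at -1.77 and S100a9 at -1.69. The 1 that was higher was Csf3r (0.50), and the 4 that did not pass had differences from -0.12 to 0.03. Dendritic cell markers had 2 of 10 higher, Xcr1 (3.37) and Clec9a (1.88). Another 3 were lower, among them Cd207 (-0.40) and Ccr7 (-0.26), 5 did not pass, and the median difference was -0.06. The count of lower genes was 1 without wild type replicate 3 or without St2-/- replicate 2 or 3. T, NK and B cell markers had 4 of 8 higher, among them Cd3g (0.94) and Cd3e (0.72). The 4 that did not pass had differences from -0.23 to 0.09, and the median of the list was 0.19. Of the 8, 6 lay among the dimmest genes, Cd3g among them. Cd8a (0.30) lost its call without St2-/- replicate 2 or 3 or wild type replicate 2 or 3 (limma adjusted p from 0.0667 to 0.107). Of 8 mast cell and basophil markers, all among the dimmest genes, 1 was lower (Kit, -0.38), a count of 0 without St2-/- replicate 2 and of 2 without wild type replicate 1. The part of these cells in the differences of the 10 genes was not tested.

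**Figure D5:**
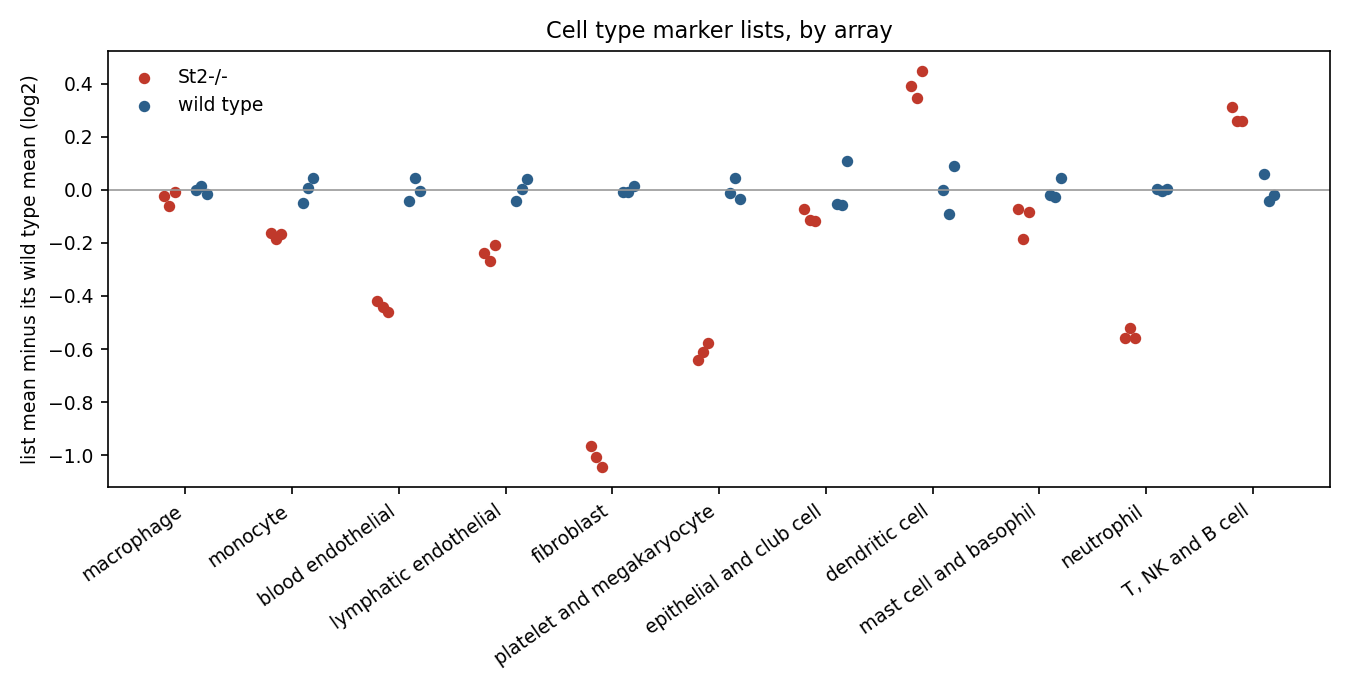
Mean RMA value of each cell type marker list in each array, less that list's mean over the wild type arrays (log2, vertical axis), St2-/- in red and wild type in blue. Macrophage list means differ by at most 0.08 between any arrays. The St2-/- arrays lie below the wild type arrays for the fibroblast, platelet, neutrophil, monocyte, epithelial, mast cell and both endothelial lists. They lie above for the dendritic and lymphocyte lists, though the median difference of the dendritic genes was -0.06.

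The genes whose profile over the 6 arrays was closest to the mean profile of the 10 genes were Alox5, Angpt1, Antxr1, Serpinb2, Bgn and Dpt. Closeness was the root mean square distance of centred log2 values, which was 0.056 for Alox5, 0.077 for Angpt1, 0.108 for Antxr1, 0.114 for Serpinb2, 0.121 for Bgn and 0.122 for Dpt. Alox5, the lipoxygenase that starts leukotriene synthesis, was 6.20, 6.05 and 6.03 in St2-/-, against 8.20, 8.23 and 8.24 in wild type. Angpt1, a ligand of the vessel receptor Tek, was 6.93, 6.99 and 7.02 in St2-/-, against 9.11, 9.07 and 9.01 in wild type. In both genes the groups were far apart and narrow, with differences of -2.13 for Alox5 and -2.08 for Angpt1. Bgn and Dpt encode matrix proteins of connective tissue. With 6 arrays in 2 groups this closeness mainly ranks genes by their difference between the genotypes.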

How the data were processed

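RNA from 6 samples was read on Affymetrix Gene 1.0 ST arrays, according to the labels' protocols. What the authors deposited is RMA output, per the submitters' processing notes, here used as log2 values. RMA corrects background, equalises array distributions by quantiles and summarises probes, so a change common to most genes is hidden. Its version, annotation, build and log base are unstated in these sources; log2 is what RMA returns.

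The platform annotation gave 21789 of 35556 probe sets 1 symbol, and each gene was represented by its brightest probe set on average, giving 19938 genes. RefSeq matched 99.6% of gene IDs. The genotypes were contrasted with limma 3.58.1 (R 4.3.3; lmFit, eBayes, two-sided, Benjamini-Hochberg over all genes, adjusted p under 0.05), which was tested on simulated data. No gene was left out for a low value.

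The 10 genes and the lists beside them were chosen with earlier results of these data known. Named genes are the 10 genes, up to 4 genes of each list with the smallest p, Adgre1, Csf1r and Cd68, all relatives and the 6 closest profiles, except those said to be named after their values were seen. The settings varied were centring, cyclic loess, 2 variance priors, array weights, probe set averaging, dim genes, all rows, a replicate block and each array left out. The labels give no batch or scan date. A further motif searched in the upstream windows is not reported here.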

Additional observations from a re-analysis of the deposited data

How the results depend on the processing

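The count of the 10 genes that were lower was 9 under all 15 alternatives, and with arrays centred on their median Timd4 was also called, higher. Their median difference of -2.59 was -2.50 with arrays centred on their median and -2.73 when the dimmest 40% of genes, Timd4 among them, were left out. Without single arrays it lay between -2.64 and -2.55. Among all genes 4140 passed, and 2887 to 3852 without single arrays (1421 to 1958 lower and 1466 to 1894 higher). With centred arrays the split of 1998 lower and 2142 higher became 1294 lower and 3686 higher. Replicate numbers shared by the groups did not pair the arrays (correlations of deviations from group means 0.0118, -0.0116 and -0.0477), and a replicate block gave 3571 calls and 9 of the 10 genes. Of 141 other named genes 100 passed, and 86 of these kept call and direction under every alternative they were tested in, 8 of them being dim and so not tested with the dimmest 40% left out; 14 genes lost and 11 gained a call under at least 1. Genes that changed sign did not pass under the alternative. With centred arrays the differences were 0.00 for Vsig1, 0.03 for Bpi and Ms4a2, 0.04 for Havcr1, 0.05 for Cd68 and C1qa, 0.06 for Pla2r1, 0.08 for F13b and 0.02 for Prox1. After cyclic loess they were -0.04 for Csf1r, Hmox1 and Nr3c1, -0.02 for C1qb, 0.00 for Havcr1, 0.05 for Pla2r1 and 0.04 for F13b, and with array weights 0.03 for F13b. Without single arrays Mrc2 (-0.02 to 0.04), F13b (-0.09 to 0.13), Prox1 (-0.14 to 0.02), Cma1 (-0.18 to 0.02) and Pla2r1 (-0.06 to 0.00) took either sign. The cause of these shifts was not tested. The table holds no detection calls, so signal over background limits what is known of every dim gene. Among them are Vsig4, Timd4 and Lum, and also Chil3, Dpt and Serpinb2, which averaged 3.60, 3.90 and 4.20 in St2-/-.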

Other observations

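Genes beside the 10 on their chromosomes were read for whether whole regions moved, a comparison added after the data were seen. Of 40 measured genes, the 2 nearest on each side of each of the 10, 7 were lower, 2 higher and 31 did not pass. That is 22.5%, beside 20.8% of all genes. None of the 40 was at least 2-fold lower, and their median difference was -0.05. Dcxr and Rac3 near Cbr2 had differences of -0.29 and -0.39, against -3.70 for Cbr2 itself. Near Lyve1, the AMP deaminase gene Ampd3 had -0.85 and Rnf141 -0.32. Near Vsig4, F630028O10Rik had -0.77 and the iron oxidase gene Heph -0.38. Ly86, which encodes a partner of a Toll-like receptor relative and neighbours F13a1, was higher, with a difference of 0.30. The genes on either side of Cd163, Mrc1 and Pltp did not pass.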
